A study of Homo sapiens with 4 samples.

Results

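Clustered HOX genes were read by 54 of the 47321 probes on Illumina bead arrays, namely every probe whose symbol is HOXA, HOXB, HOXC or HOXD followed by a number. These 54 probes cover 39 genes in 4 clusters: 20 probes for 11 HOXA genes, 12 for 10 HOXB genes, 13 for 9 HOXC genes and 9 for 9 HOXD genes. Of these genes 9 had several probes and 30 had 1. The members were taken by name, by a rule that used none of their values, although earlier results of these data were known when it was set.

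HOX genes encode homeodomain transcription factors that give cells their position along the head-to-tail axis of the embryo. They lie in 4 clusters on chromosomes 7 (HOXA), 17 (HOXB), 12 (HOXC) and 2 (HOXD). Genes with the same number in different clusters are paralogs, low numbers act towards the head and high numbers towards the tail, and adult tissues and tumours keep characteristic sets of active HOX genes. Polycomb complexes hold silent clusters shut, and their promoters are rich in CpG dinucleotides, the sites where DNA is methylated. TET1 is a dioxygenase that binds CpG-rich DNA and oxidises 5-methylcytosine.

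The promoters of 3 HOXA genes whose values in the cell lines did not overlap are shown because CpG dinucleotides, possible sites of methylation, can be counted in them. Each is a window of 300 bases, 250 before to 50 after the transcription start, on the minus strand of GRCh38.p14 as given by RefSeq. Capitals mark every CG. HOXA9 lies at chr7:27165488-27165787, HOXA4 at chr7:27130708-27131007 and HOXA2 at chr7:27102634-27102933.
HOXA9: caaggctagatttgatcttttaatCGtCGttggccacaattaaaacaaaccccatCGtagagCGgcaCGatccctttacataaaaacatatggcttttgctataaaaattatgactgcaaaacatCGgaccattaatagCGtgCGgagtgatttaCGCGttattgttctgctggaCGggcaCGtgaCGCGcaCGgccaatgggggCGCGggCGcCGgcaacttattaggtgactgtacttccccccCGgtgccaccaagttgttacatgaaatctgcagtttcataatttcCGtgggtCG
HOXA4: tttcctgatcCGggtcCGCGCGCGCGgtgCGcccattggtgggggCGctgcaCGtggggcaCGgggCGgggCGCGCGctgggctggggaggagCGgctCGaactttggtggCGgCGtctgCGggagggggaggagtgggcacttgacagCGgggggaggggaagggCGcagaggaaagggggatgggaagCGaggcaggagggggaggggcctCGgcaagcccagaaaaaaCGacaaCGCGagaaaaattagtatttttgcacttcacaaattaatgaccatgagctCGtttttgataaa
HOXA2: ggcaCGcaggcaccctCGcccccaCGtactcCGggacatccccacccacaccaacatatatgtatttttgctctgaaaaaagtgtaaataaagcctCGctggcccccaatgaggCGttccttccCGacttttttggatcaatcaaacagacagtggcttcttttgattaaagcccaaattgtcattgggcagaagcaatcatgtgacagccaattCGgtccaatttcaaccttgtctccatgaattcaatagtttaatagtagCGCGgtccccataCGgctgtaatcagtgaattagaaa
The HOXA9 window holds 22 CG, a number reached by 37.7% of all 35116 RefSeq promoter windows. The HOXA4 window holds 27 (reached by 28.2%) and the HOXA2 window 11 (reached by 54.7%). RefSeq windows were at hand for 20 of the 39 HOX genes, 27 entries in all with 1 window shared by HOXC4 and HOXC5, and the median window held 22 CG, against 14 over all promoters. Their range was 0, in a HOXA3 window, to 44, in that of HOXA13. The letters TGATNNAT, searched on both strands as the core that HOX and PBX proteins bind together, were found in 3 of the 27 entries (HOXA2, HOXB1 and HOXD11), and in 7.4% of all windows. The N letters of that motif can themselves hold a CG. No methylation was measured on these arrays.

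The 4 arrays were hybridised with labelled cRNA of H1299 cells after siRNA knockdown of TET1, H1299 parent cells given vehicle, A549 cells after siRNA knockdown of TET1, and A549 parent cells given vehicle. H1299 is a line from a lymph node metastasis of a non-small cell lung carcinoma, and A549 is a line from a lung adenocarcinoma. Each group had 1 array, all on 1 bead chip, and no value has a replicate. The labels give the source of both lines as bronchial epithelium and describe extraction of DNA, although the molecule is named as RNA. The labels name no control siRNA, so knockdown arrays differ from controls in siRNA delivery as well as in TET1. A probe counted as detected where its detection p-value, given per probe by the array software, was under 0.01. By that rule 30.5% of all probes were detected on the H1299 knockdown array, 35.7% on the H1299 control, 36.2% on the A549 knockdown and 29.5% on the A549 control. Changes are differences of background-corrected, quantile-normalized log2 signal.

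The targeted gene was read by 2 probes. On ILMN_3247163 the raw TET1 signal was 186.8 in the H1299 knockdown, against 255.9 in its control, and 164.5 in the A549 knockdown, against 222.1 in its control. It was detected in the controls alone. With normalized values TET1 was lower after knockdown by at least 1.74-fold in H1299 and by at least 3.14-fold in A549. The raw signals, background included, differed by less. Its mean change over both lines was -1.45 ± 1.0 (SE), which did not pass the test of knockdown against control (limma unadjusted p = 0.147). The second probe, ILMN_1741056, was detected on the H1299 control alone. Line markers followed the labels. The tumour suppressor gene CDKN2A, which A549 has lost, was detected by probe ILMN_1717714 in H1299 alone, and CDH1 (E-cadherin) and EPCAM were detected in A549 alone. NKX2-1, SFTPB, SFTPC and SCGB1A1, which mark lung epithelium, were detected on no array. Nor were PTPRC of leukocytes, COL1A2 of fibroblasts and PECAM1 of endothelium. HBB of red cells was detected on the A549 knockdown array alone, at 183.2 (detection p-value 0.0039), where the dimmest detected probe read 180.

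The A549 control and H1299 knockdown arrays stood apart from the other 2 together. Over the 17002 probes detected on at least 2 arrays, here called tested (35.9% of all probes, and 24 HOX probes of 22 genes), the change in A549 and the change in H1299 had a Pearson r of -0.76 across probes, which are not independent, although the lines share no array. Of all tested probes 77.7% changed in opposite directions in the 2 lines. A HOX change of that kind is therefore given with this share, and its part in any HOX value was not tested.

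Of the 39 HOX genes, 26 were detected on at least 1 array and 13 on none. By probe, 28 of 54 (51.9%) were detected on at least 1 array, against 42.1% of all probes. Counted by gene, detection was densest in the middle of the clusters, although genes with several probes, such as HOXB6, HOXC6 and HOXA3, had more chances of detection. Of 15 central genes, numbered 4 to 8, 13 were detected on at least 1 array, against 5 of 8 anterior genes, numbered 1 to 3, and 8 of 16 posterior genes, numbered 9 to 13. Among the undetected genes were HOXA3, HOXA7, HOXA11, HOXB1, HOXB9, HOXB13, HOXC5, HOXC11, HOXC12, HOXD9, HOXD12 and HOXD13. The 17 probes of undetected genes, with 9 undetected second probes of detected genes, read between 114.2 and 177.8, and below the limit a low level cannot be told from none. In bulk RNA, fewer cells that express a gene and less RNA per cell cannot be told apart.

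By line, HOX genes detected numbered 17 in the H1299 knockdown and 20 in the H1299 control, and 21 in the A549 knockdown and 21 in the A549 control. The HOXA cluster gave 5 genes on each H1299 array and 7 on each A549 array. HOXD gave 2 on each H1299 array and 4 on each A549 array. HOXB gave 5 and 7 in the H1299 knockdown and control, and 5 and 5 in the A549 knockdown and control. HOXC gave 5 and 6 in H1299 and 5 and 5 in A549, in the same order. Of all probes 25.1% were detected on all 4 arrays, as were 15 HOX probes, 1 for each of HOXA4, HOXA5, HOXA6, HOXA9, HOXA10, HOXB2, HOXB5, HOXB6, HOXB7, HOXC4, HOXC6, HOXC8, HOXC9, HOXC13 and HOXD3.

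**Figure D1:**
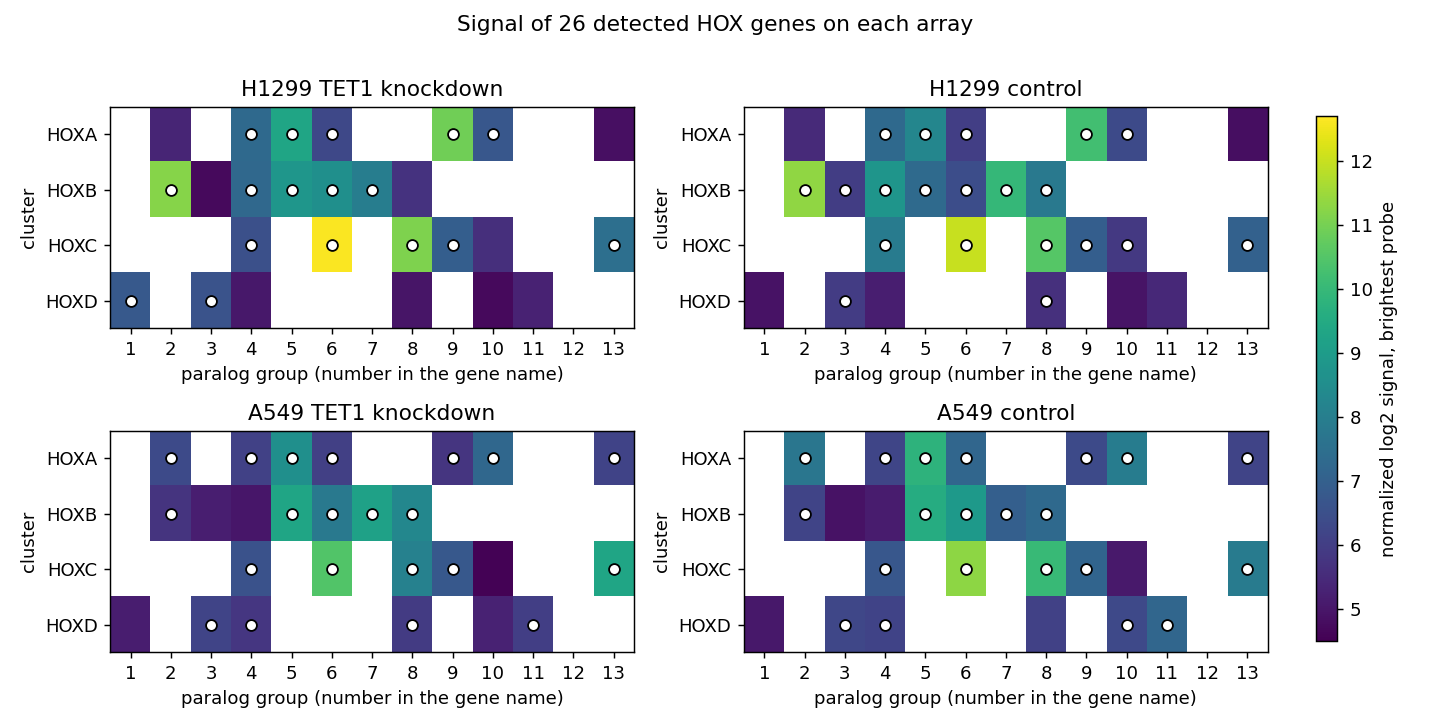
Normalized log2 signal (colour) of the brightest probe of each of the 26 HOX genes detected on at least 1 array, by cluster (rows) and paralog group (columns), on the 4 arrays. A white dot marks a gene detected by at least 1 probe, blank cells have no gene or no detected gene, and colours are to be compared between panels for the same gene, since different probes have no common scale. HOXA9 and HOXB2 are bright in both H1299 panels, and HOXA2, HOXA13, HOXD4 and HOXD11 are detected in both A549 panels only.

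Of the HOX genes 2 differed between the lines past the test, both higher in H1299, where 1.28% of all tested probes passed in that direction. HOXB2, which sets hindbrain segment identity, was 40.4-fold higher in H1299 than in A549, and HOXA9, a posterior gene best known for driving acute myeloid leukaemia, was 23.1-fold higher. These sizes varied with the background step. As log2 differences they were 5.34 and 4.53, against 3.80 and 3.10 without background correction and 2.94 and 2.29 on the deposited values. The A549 signals of both genes lay close to the detection limit. HOXB4, a gene of blood stem cell growth, was detected in H1299 alone but missed the threshold. In the other direction HOXA2, HOXA13, HOXD4 and HOXD11 were detected in A549 alone on both arrays of the line, and none of these passed. Some detection p-values lay close to the limit of 0.01. In the A549 control those of HOXA13 and HOXD4 were 0.00909. In the H1299 control that of HOXD11 was 0.02208, and those of the HOXA2 probes were 0.01429 (ILMN_1799836) and 0.10779 (ILMN_2107068). The comparison asks which HOX set each line carries, and used all 4 arrays with knockdown as a term.

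HOXB2 read 2853.3 in the H1299 knockdown and 2592.1 in the H1299 control, and 190.3 in the A549 knockdown and 176.4 in the A549 control. Both H1299 arrays stood far above both A549 arrays, which had detection p-values, from the authors' table, of 0.0026 (knockdown) and 0.00909 (control). The difference of normalized HOXB2 signal, H1299 minus A549, was 5.34 ± 1.01 (SE) on the log2 scale (limma adjusted p = 1.79e-05). It was 5.49 on the knockdown arrays and 5.18 on the control arrays. Without background correction it was 3.80, and on the deposited values 2.94.

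HOXA9 probe ILMN_1739582 read 2305.2 in the H1299 knockdown and 1319.9 in the H1299 control, and 191.6 in the A549 knockdown and 181.6 in the A549 control. Here too the lines did not overlap, and the detection p-values in A549 were 0.0026 (knockdown) and 0.00519 (control). The HOXA9 difference was 4.53 ± 1.06 (SE) (limma adjusted p = 0.00136), with 5.16 on the knockdown arrays and 3.90 on the control arrays. Without background correction the HOXA9 difference was 3.10, and on the deposited values it was 2.29 and did not pass (limma adjusted p = 0.0629). With median centring in place of quantile normalization neither gene passed (limma adjusted p = 0.11 for HOXB2 and 0.156 for HOXA9), although the differences were of like size, 5.40 for HOXB2 and 4.63 for HOXA9. A second HOXA9 probe, ILMN_1702479, was detected on no array.

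HOXB4, next to HOXB3 on the chromosome, read 270.0 in the H1299 knockdown and 595.4 in the H1299 control, and an undetected 154.5 and 148.9 in the A549 knockdown and control. It was thus at least 4.61-fold higher in H1299 (limma adjusted p = 0.0964), and passed without the intensity trend (adjusted p = 0.0473) or without the filter on dim probes (adjusted p = 0.0292). The HOXB4 difference was 2.98, against 0.68 on the deposited values. HOXA4 read 271.2 and 305.1 in the H1299 knockdown and control, and 211.2 and 177.5 in the A549 knockdown and control. Its difference was 1.15 ± 1.08 (SE), which did not pass (limma adjusted p = 0.999896).

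HOXC6 and HOXC8, thoracic genes that neighbour each other, were also higher on both H1299 arrays. HOXC6 probe ILMN_1794492 read 7377.1 in the H1299 knockdown and 4056.8 in the H1299 control, and 1723.9 in the A549 knockdown and 2192.8 in the A549 control. HOXC8 read 2665.6 and 1575.5 in the H1299 knockdown and control, and 474.4 and 929.1 in the A549 knockdown and control. The differences were 1.45 ± 0.62 (SE) for HOXC6 and 1.77 ± 0.81 (SE) for HOXC8, and neither passed (limma adjusted p = 0.267 and 0.349). Most of each lay in the knockdown arrays, 2.19 for HOXC6 and 3.03 for HOXC8, against 0.70 and 0.51 in the control arrays. The other HOXC6 probes were detected on no array.

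Among genes higher in A549, HOXA2, which patterns the second pharyngeal arch, had 2 probes that behaved alike. ILMN_2107068 read an undetected 139.7 and 152.2 in the H1299 knockdown and control, and 259.0 and 301.3 in the A549 knockdown and control. ILMN_1799836 read an undetected 168.5 and 168.2 in H1299, and 229.9 and 267.8 in A549, in the same order. These probes put HOXA2 lower in H1299 by at least 2.96-fold and 2.37-fold, short of the threshold (limma adjusted p = 0.188 and 0.736). For ILMN_2107068 the difference was -2.45, against -0.41 on the deposited values.

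The posterior genes HOXA13, of limb and genital development, and HOXD11, of the forearm, were detected in A549 alone. HOXA13 read an undetected 147.3 and 136.6 in the H1299 knockdown and control, and 215.2 and 176.6 in the A549 knockdown and control. HOXD11 read an undetected 165.5 and 166.1 in H1299, and 207.8 and 224.8 in A549. HOXD4 read an undetected 156.6 and 156.3 in H1299, and 193.3 and 176.3 in A549. These put the genes at least 1.29-fold (HOXA13), 1.78-fold (HOXD11) and 1.13-fold (HOXD4) lower in H1299, small bounds, and none passed (limma adjusted p = 0.746, 0.947 and 0.999896).

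Over the 24 tested HOX probes, 2 passed (8.33%), against 3.83% of all tested probes, and 6 had an unadjusted p under 0.05 against 10.1% of all. On 15 of the 24 HOX probes (62.5%) the normalized values of the lines did not overlap, against 43.2% of all tested probes. Of these, 6 were higher in H1299 and 9 in A549, where 22.0% and 21.2% of all tested probes were. The line difference had 1 sign on the knockdown and on the control arrays for 15 HOX probes, against 46.7% of all. The median line difference was -0.47 over HOX probes and 0.05 over all tested probes. With 2 arrays a line, the spread in this test is the disagreement of the knockdown and control arrays over probes of like signal. It hardly followed a probe's own disagreement. HOXB2 differed by 5.49 on the knockdown arrays and 5.18 on the control arrays, and HOXB7 by -1.23 and 2.97. Their SEs were 1.01 and 1.03.

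**Figure D2:**
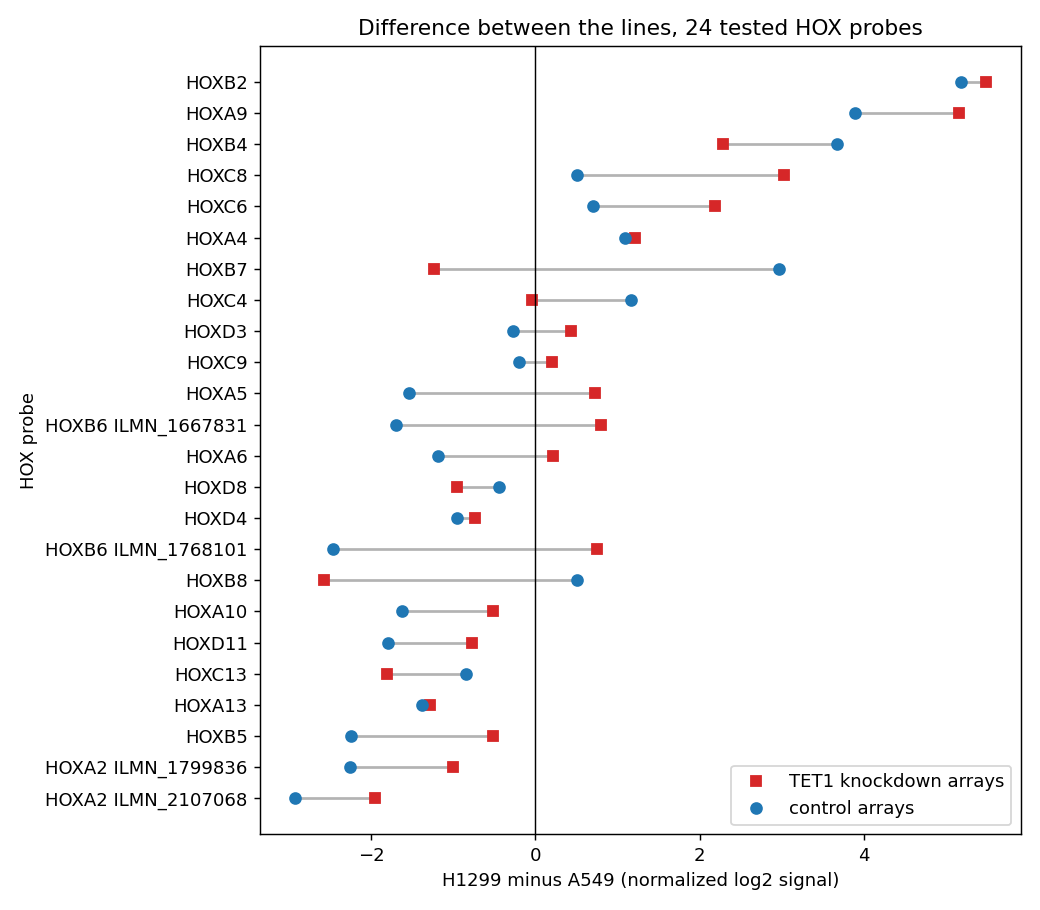
Difference of normalized log2 signal, H1299 minus A549, for the 24 HOX probes detected on at least 2 arrays, on the TET1 knockdown arrays (squares) and on the control arrays (circles), with a line joining them. HOXB2 and HOXA9 lie at 3.90 or more on both, while HOXA5, HOXA6, both HOXB6 probes, HOXB7, HOXB8, HOXC4, HOXC9 and HOXD3 change sign between them.

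No HOX gene passed the test of knockdown against control over both lines. Of 24 HOX probes 0 passed and 0 had an unadjusted p under 0.05 in limma, where 1 of 17002 tested probes passed (0.00588%) and 20 had an unadjusted p under 0.05. The largest mean increase was that of HOXC13 (0.92 ± 1.10, SE) and the largest mean decrease that of HOXA2 probe ILMN_2107068 (-0.86 ± 0.97, SE). The error of this test is the disagreement of the lines, taken over probes of like signal. Since the lines opposed each other on most probes, missing the test does not show that a HOX gene did not change. The median mean change was -0.17 over HOX probes and 0.03 over all tested probes, and 8 HOX probes had values below 0 in both lines (9.09% of all tested probes did) and 1 above 0 in both (13.1%). Of those 8, only HOXB2, HOXC4 and HOXD8 were detected in both lines, and all 3 turned above 0 in A549 with median centring.

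Within a line there is no test, and a probe counted as changed where it differed at least 2-fold and was detected on at least 1 of the line's 2 arrays. In H1299, 10 of 22 HOX probes (45.5%) differed at least 2-fold, against 36.0% of all probes. In A549, 11 of 24 (45.8%) did, against 22.0%. In the HOXB cluster the probes of neighbouring genes were split in H1299, with HOXB5 and HOXB6 higher in the knockdown and HOXB7 and HOXB8 lower. Of all probes 16.7% were at least 2-fold higher there and 19.3% lower. HOXB5, HOXB7 and HOXB8 had 1 probe each. Probes of 1 gene moved alike for HOXB6 but not for the Polycomb gene EZH2 (-2.95 on ILMN_2364529 and 0.16 on ILMN_1708105 in H1299). Whether the split lay between genes or only between probes was not tested.

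HOXB7, a gene often raised in carcinomas, had the largest opposed change. It read 364.8 in the H1299 knockdown, against 1116.1 in its control, and 838.3 in the A549 knockdown, against 209.9 in its control. After normalization the H1299 knockdown had 3.94-fold less HOXB7 than its control and the A549 knockdown 4.67-fold more, and the gene stayed past 2-fold in both lines under each of 5 scalings. The neighbour HOXB8 read 179.9 in the H1299 knockdown, undetected at a detection p-value of 0.0273, against 377.6 in its control, and 516.7 in the A549 knockdown, against 230.0 in its control. For HOXB8 the H1299 knockdown was lower by at least 3.41-fold and the A549 knockdown higher by 1.98-fold. On the deposited values these log2 changes were -0.43 in H1299 and 0.38 in A549.

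HOXB6 and HOXB5 went the other way in H1299. HOXB6 probe ILMN_1768101 read 502.5 in the H1299 knockdown, against 222.8 in its control, and 417.2 in the A549 knockdown, against 468.7 in its control, a change of 4.41-fold higher in H1299 and 2.10-fold lower in A549. Probe ILMN_1667831 read 232.5 against an undetected 167.5 in H1299 and 208.4 against 220.7 in A549, at least 2.43-fold higher and 2.16-fold lower. On the deposited values its log2 changes were 0.18 in H1299 and -0.21 in A549. The 2 HOXB6 probes thus moved alike in each line. HOXB5, which acts in lung branching in the mouse, read 574.5 in the H1299 knockdown, against 308.8 in its control, which made it 2.79-fold higher. In A549 it read 891.4 in the knockdown, against 704.4 in the control, and its normalized change was -0.24, turning to 0.28 with median centring.

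Towards the other end of HOXB, HOXB4 was 2.85-fold lower in the H1299 knockdown, by the values given above, and undetected in A549. HOXB3 was detected in the H1299 control alone, at 193.9, against 137.4 in the knockdown, with 164.1 and 139.5 undetected in the A549 knockdown and control. Its H1299 change was -1.29, too near the limit for a fold. In RefSeq the extents of HOXB3 and HOXB4 overlap, as do those of HOXA3 with HOXA4, HOXA5 and HOXA6, of HOXC4, HOXC5 and HOXC6, and of HOXD3 and HOXD4, so which transcript a probe read was not tested for these. HOXB2, with the largest line difference, changed by -0.13 in H1299 and -0.44 in A549, both turning above 0 with median centring.

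**Figure D3:**
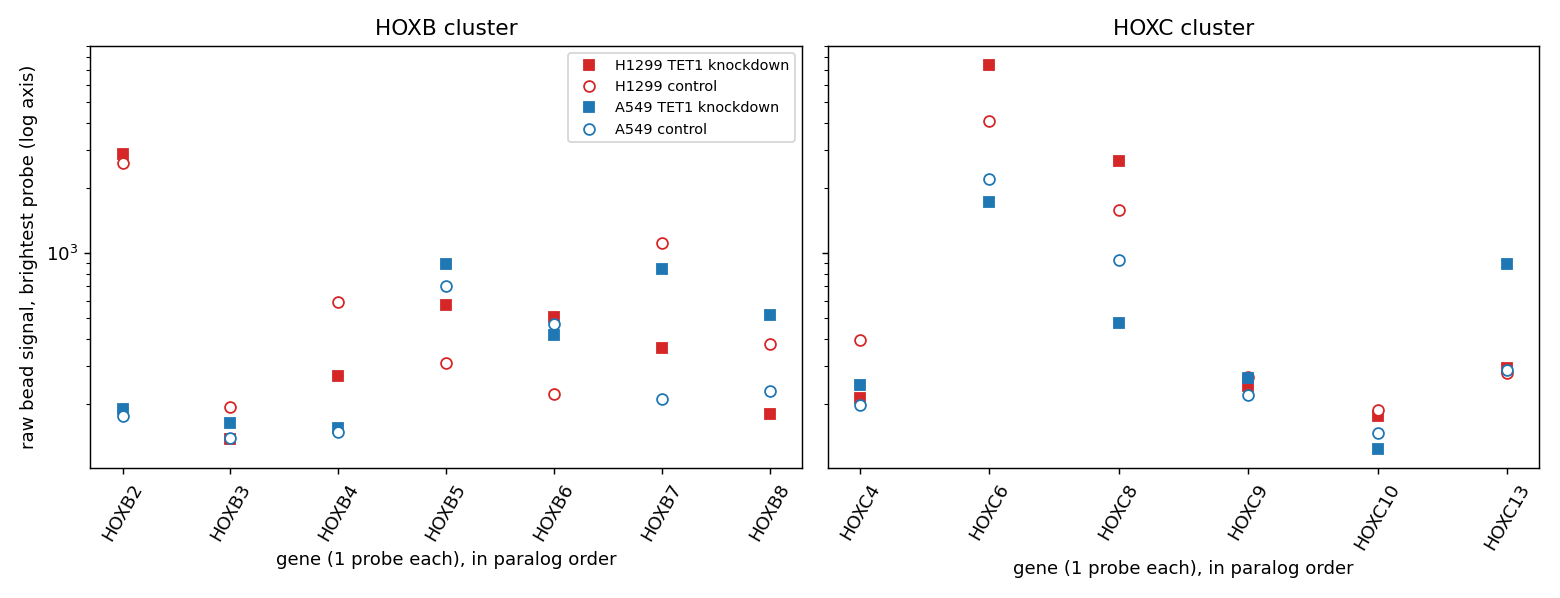
Raw bead signal (log axis) of 1 probe, the brightest, per gene detected on at least 1 array along the HOXB cluster (left) and the HOXC cluster (right) on the 4 arrays. HOXB2 and HOXB4 separate the lines, HOXB7 is highest in the H1299 control and lowest in the A549 control, and HOXC13 stands out in the A549 knockdown at 884.9.

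In the HOXC cluster the largest change was HOXC8, 3.80-fold lower in the A549 knockdown and 1.51-fold higher in the H1299 knockdown, and past 2-fold in A549 under each of 5 scalings. HOXC6 went the same ways, by 1.56-fold up in H1299 and 1.80-fold down in A549. HOXC13, which drives hair and nail keratin genes, read 294.7 in the H1299 knockdown, against 278.4 in its control, and 884.9 in the A549 knockdown, against 286.8 in its control. It was 1.36-fold higher in the H1299 knockdown and 2.63-fold higher in the A549 knockdown. With quantile normalization it was the only tested HOX probe higher in both lines, and with median centring 6 were, HOXA10, HOXA13, HOXB2, HOXB5, HOXC13 and HOXD3. HOXC4 probe ILMN_1719975 read 212.1 in the H1299 knockdown, against 394.5 in its control, 2.62-fold lower, and 246.1 in the A549 knockdown, against 197.0 in its control, where the change of -0.19 turned to 0.54 with median centring. HOXC9 read 241.1 and 266.6 in the H1299 knockdown and control and 265.2 and 220.1 in the A549 knockdown and control, with changes of 0.02 and -0.39 that turned to -0.25 and 0.37 with median centring. HOXC10 was detected in the H1299 control alone, at 187.2, against 176.8 in its knockdown, with 124.3 and 146.6 in the A549 knockdown and control.

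In the HOXA cluster the gene with the clearest opposed change was HOXA5, which is needed for trachea and lung formation in the mouse. HOXA5 read 792.8 in the H1299 knockdown, against 464.2 in its control, and 603.3 in the A549 knockdown, against 811.8 in its control. It was 2.08-fold higher in H1299 and 2.32-fold lower in A549. HOXA2 was 2.53-fold and 2.61-fold lower in the A549 knockdown by its 2 probes. HOXA6 read 200.5 and 195.1 in the H1299 knockdown and control and 209.6 and 223.6 in the A549 knockdown and control, a 2.20-fold difference in A549 after normalization. Of the A549 differences, those of HOXA6, HOXD11 and both HOXB6 probes were past 2-fold in 1 of 5 scalings only, and those of HOXA5 and both HOXA2 probes in 2 of 5. In H1299 that of HOXA5 and that of HOXB6 probe ILMN_1667831 were past it in 2 of 5, and those of HOXB5, HOXB8 and HOXC4 in 3 of 5.

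The remaining HOXA changes stayed under 2-fold. HOXA9 was 1.60-fold higher in the H1299 knockdown and 1.49-fold lower in the A549 knockdown. HOXA10, a gene of uterine development, read 224.5 and 215.5 in the H1299 knockdown and control and 321.7 and 291.2 in the A549 knockdown and control. Its normalized change in A549 was -0.70, while the raw signal was higher, and it turned to 0.08 with median centring. HOXA4 changed by 0.00 in H1299 and -0.12 in A549, and HOXA13, undetected in H1299, by 0.06 and -0.03, the A549 values turning above 0 with median centring and that of HOXA4 in H1299 to -0.25.

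In the HOXD cluster no signal was above 228.2, and the dimmest detected probe of any gene read 172 to 191.4 on these arrays. HOXD1 was detected in the H1299 knockdown alone, at 228.2 against 143.1 in its control, higher by at least 2.33-fold after normalization. Its log2 change was 1.87, against 0.70 without background correction and 0.24 on the deposited values. It read an undetected 163.0 and 145.9 in the A549 knockdown and control. HOXD10 was detected in the A549 control alone, where it read 180.7 against 167.8 in its knockdown. After normalization HOXD10 was lower by at least 1.71-fold after knockdown. Its log2 change was only -0.35 without background correction and -0.11 on the deposited values. HOXD11 was 2.27-fold lower in the A549 knockdown. HOXD3 read 217.9 and 192.9 in the H1299 knockdown and control and 217.6 and 178.6 in the A549 knockdown and control, and HOXD8 read 153.7 and 175.5 in H1299 and 201.3 and 173.8 in A549. HOXD8 was detected in the H1299 control and the A549 knockdown only. HOXD3 was 1.56-fold higher in the H1299 knockdown. Its A549 change of -0.06 turned to 0.54 with median centring, and that of HOXD8 likewise, -0.15 against 0.37.

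**Figure D4:**
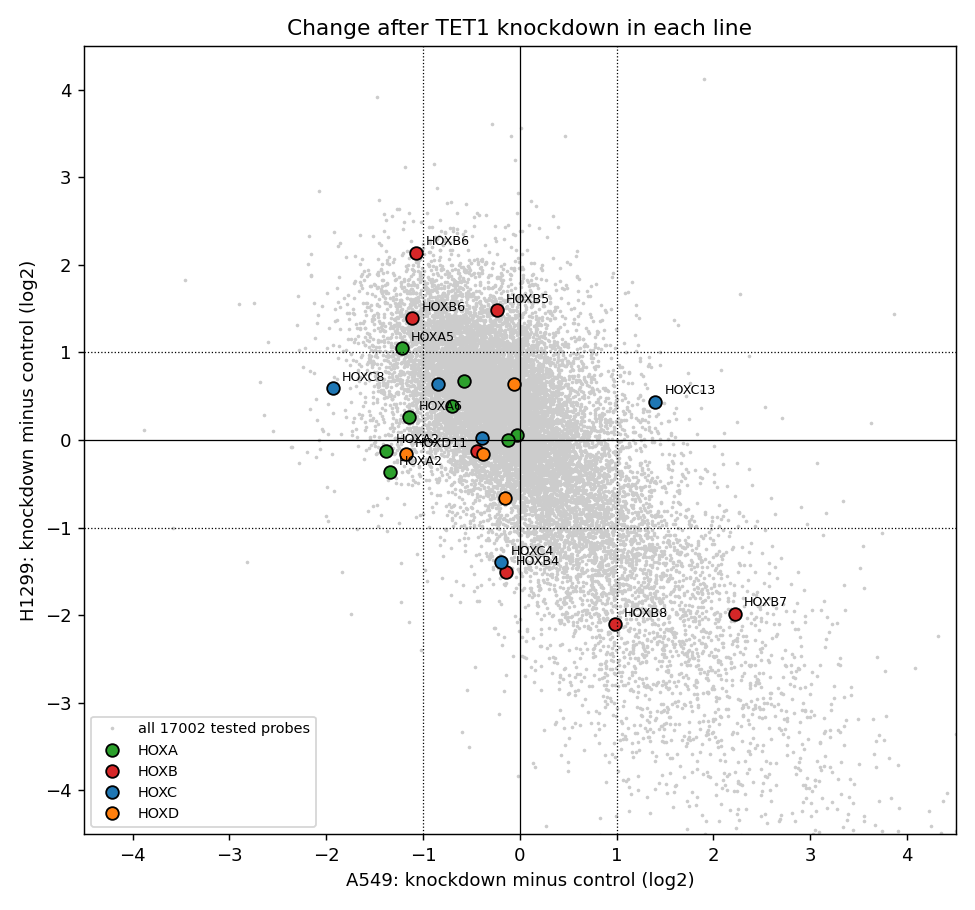
Change after TET1 knockdown, knockdown minus control in normalized log2 signal, in A549 (horizontal) and H1299 (vertical), for 17002 tested probes (grey) and 24 HOX probes coloured by cluster, with dotted lines at 2-fold. Axes end at 4.5, beyond which 112 probes lie. Of the HOX probes 15 have opposite signs in the lines, with HOXB7 at 2.22 and -1.98 and HOXB6 at -1.07 and 2.14.

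Of the 24 tested HOX probes 15 changed in opposite directions in the lines (62.5%), against 77.7% of all tested probes. In 13 the H1299 knockdown was higher and the A549 knockdown lower (46.2% of all), and in 2, HOXB7 and HOXB8, the reverse held (31.5% of all). Detected in both lines were 12 of the 13, all but HOXA13, and both of the 2. In H1299 HOXA4 and HOXC9 changed by only 0.00 and 0.02. The split depended on the scaling, and with median centring it was 7 against 7 HOX probes, with HOXA4, HOXC4, HOXC9, HOXD4 and HOXD8 joining HOXB7 and HOXB8, where 25.6% and 36.4% of all tested probes lay. The probe of HOXA5, both of HOXB6 and that of HOXB7, 4 in all, differed at least 2-fold each way, against 13.7% of all. In the A549 knockdown 9 HOX probes were at least 2-fold lower (37.5%), against 8.34% of all probes, and 2 were higher (8.33%), against 13.6%. These counts moved with the scaling. With median centring 1 HOX probe, HOXC8, was down at least 2-fold in A549 (4.17%, against 1.24% of all probes) and 3 were up (12.5%, against 25.1%), where the median change of all tested probes was 0.37, against -0.09 with quantile normalization. HOX probes were also dim, with a median highest raw signal of 358.1, against 681 over all tested probes. The part of signal level in the A549 values was not tested. In H1299, 5 HOX probes were at least 2-fold higher (22.7%) and 5 lower (22.7%), against 16.7% and 19.3% of all probes.

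Partners and regulators of HOX proteins were set beside the members by lists. Of 9 TALE cofactor genes, which encode the PBX, MEIS and PKNOX proteins that bind DNA with HOX proteins, 7 were tested and none passed either test. PBX3 read 5791.8 and 3445.6 in the H1299 knockdown and control and 1124.2 and 1355.1 in the A549 knockdown and control, a line difference of 1.85 (limma adjusted p = 0.117). PBX2 and PBX4 differed by 0.97 and 0.85 between the lines, and both had a limma adjusted p of 1.0.

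Of 28 regulators of HOX transcription 21 had tested probes, 29 in all, of which 1 passed between the lines and 0 passed for knockdown. RARB, a receptor through which retinoic acid turns on HOX genes, read an undetected 144.5 and 122.8 in the H1299 knockdown and control and 528.9 and 392.7 in the A549 knockdown and control on probe ILMN_1671151. It was at least 6.29-fold lower in H1299 (limma adjusted p = 0.0159), and 2 other RARB probes, with line differences of -2.49 and -1.35, did not pass (adjusted p = 0.158 and 0.72). RARA (-2.20 and -2.40 on 2 probes), the Polycomb gene CBX2 (-2.13 and -1.07) and WDR5 of the MLL complexes (1.35 and 0.13) did not pass (limma adjusted p of 0.154 or more). The WDR5 probes disagreed on the knockdown in H1299, with changes of -2.35 on ILMN_1728626 and 0.68 on ILMN_1737087, which was undetected in A549.

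No gene beside the clusters passed either test. Of 23 such genes 18 were tested by 22 probes, with a median line difference of 0.22 and a median mean change after knockdown of 0.05. HIBADH, beyond the HOXA cluster, was 4.12-fold lower in H1299 (limma adjusted p = 0.0575). CBX1, near HOXB, was 2.54-fold higher and TTLL6, near HOXB, at least 1.41-fold lower. LNPK, near HOXD, had a line difference of 1.10 with 1 of the 2 A549 arrays undetected. None of these passed the test (limma adjusted p of 0.774 or more). Of the noncoding RNAs of the clusters 8 of 21 had a probe, among them HOTAIR, HOXA11-AS, MIR10A, MIR10B and MIR196B, and all 8 probes were undetected on every array, at 114.1 to 168.1.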

How the data were processed

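Total RNA of the 4 samples was labelled as biotinylated cRNA with the Ambion MessageAmp kit, per the labels' protocols. The main deposited table gives, per the file headers, an average signal intensity and a detection p-value for 47321 probes on each array, deposited as not normalized. The authors also deposited values near a log2 scale, made with lumi per the submitters' processing notes, for which transformation and version stay not given in the sources used here. Every per-sample column matched a sample (0 left over).

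Background was removed from the intensity by normexp, reading the negative controls' mean and spread out of the detection p-values (offset 16). Signals were then quantile normalized and log2 transformed (limma 3.58.1, R 4.3.3). Probes detected (p under 0.01) on at least 2 arrays were fitted in limma with cell line and knockdown as terms and an intensity trend, leaving 1 residual degree of freedom. Two-sided p-values were adjusted by Benjamini-Hochberg over all 17002 probes, at 0.05. The fit was also run on simulated data with known changes. For knockdown it recovered 0% of 2-fold, 6% of 4-fold and 62% of 16-fold changes. For H1299 against A549 it recovered 4%, 12% and 72%. Most changes of 2-fold or 4-fold would thus be missed by either test. A probe undetected on a whole side has only a bound, set on each such array by the dimmest detected probe, or by the probe's own value if that was higher. Such a bound holds for these normalized values only, and other scalings could give a smaller difference. No fold is given where that bound is under 1 or both sides are undetected. The rule named all HOX genes, the detected ones with values, and up to 4 members of each list by size of mean change or line difference; some named by it are not reported here. Older list symbols were matched to current ones with the RefSeq gene table (GRCh38.p14). The members and lists were chosen with earlier results of these data known. Whether the RNA came from separate cultures is unstated in the labels, so p-values measure the spread between these arrays alone, and precision is limited by their number. Tried as alternatives were lumi's values, uncorrected background, median centring, an offset of 50, other filters on dim probes, a detection p under 0.05, no trend, 1 probe per gene, and leaving out either term. Figures were drawn with matplotlib 3.10.9.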

Additional observations from a re-analysis of the deposited data

Results flagged for a closer look

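HOX probes that differed at least 2-fold between knockdown and control in opposite directions in the 2 lines were set aside. HOXB7 changed by -1.98 in H1299 and 2.22 in A549 (log2). HOXB6 changed by 2.14 in H1299 and -1.07 in A549 on probe ILMN_1768101, and by 1.39 and -1.11 on probe ILMN_1667831. HOXA5 changed by 1.05 in H1299 and -1.22 in A549. With 1 array per group the difference between the lines was not tested, and 13.7% of all tested probes met the same condition.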

How the results depend on the processing

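The count of 0 HOX probes past the test of knockdown against control held in all 10 alternatives, with at most 1 at an unadjusted p under 0.05 in limma (no filter on dim probes). Over all probes that test called 1, and 0 with median centring or no block for line. For H1299 against A549, 2 HOX probes passed, 1 on the deposited values (HOXB2) and 0 with median centring. Over all probes the line calls numbered 651, against 258 on the deposited values and 32 with median centring, where the prior degrees of freedom were 4.03. HOXB4 joined the calls without a filter and without the trend, making 3. HOX probes past 2-fold in A549 numbered 11, against 2 on the deposited values, 3 without background correction, 4 with median centring and 6 with an offset of 50. In H1299 they numbered 10, against 1 on the deposited values, 3 without background correction, 7 with an offset of 50 and 12 with median centring. The median HOX change in A549 was -0.41, and -0.09 on the deposited values and 0.07 with median centring. The cause of these shifts was not tested. No HOX probe past 2-fold turned its direction under any of these scalings. Knockdown and control were paired by cell line in the fit itself. No paired analysis by replicate number was possible because the labels give none. Leaving out an array leaves a value in 1 line with no test.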
